A study of Mus musculus with 29 samples.

Results

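The genes described here are 9 of the 54532 genes of the cell-type table and of the 55421 of the Smad table: the signal transducers Stat2, Stat3, Stat4 and Stat6, the feedback inhibitors Socs1, Socs2, Socs3 and Cish, and the kinase gene Pim1. They were chosen by symbol, as STATs and genes of cytokine feedback. No cut on a measured value was used, but earlier results of these data were known. Each was measured in 17 RNA libraries of splenic CD4 T cells from C57BL/6 mice, sequenced as tags near the 3' end of transcripts. In the cell-type experiment, Treg cells were grown from naive cells over 5 days in 15 ng/ml IL-2 plus 10 ng/ml human TGF-beta, Th0 cells over 5 days in 15 ng/ml IL-2 alone, and naive CD4 T cells were taken from the spleen, with 3 libraries each. In the Smad experiment, Treg cultures grown as above carried guide RNA for Smad2 (group sgSmad2), for Smad3 (group sgSmad3) or for the pair (group sgSmad2/3), or were labelled with no guide (control), with 2 libraries each, so that all 4 groups had received IL-2 and TGF-beta. Smad2 and Smad3 are the transcription factors that the TGF-beta receptor activates. The labels name neither the Cas9 source, nor the way the guides were delivered, nor a control guide, nor the stimulus of the T cell receptor.

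Cytokine receptors without a kinase of their own carry Janus kinases, which phosphorylate STAT proteins. Phosphorylated STATs pair, enter the nucleus and bind DNA at palindromes of TTC and GAA. Among the genes they switch on are Cish and the Socs genes, whose products bind the receptors or the kinases and damp the signal, and Pim1, a serine/threonine kinase of growth and survival. In T cells, IL-2 acts mainly through STAT5, IL-6 through STAT3, IL-12 through STAT4, IL-4 through STAT6, and type I interferon through complexes that hold STAT2.

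The promoters of Cish, Socs1, Socs3 and Stat2 are shown. Like a Stat4 promoter that is not shown, they carry palindromes of this kind or interferon motifs. They come from RefSeq on GRCm38.p6 (the assembly also called mm10), 5' to 3' on the gene's strand, with 250 bases before and 50 after the start that the RefSeq table uses. Capitals mark the spaced palindromes TTCNNNGAA or TTCNNNNGAA and the interferon motif GAAANNGAAA or its reverse complement TTTCNNTTTC, each searched on both strands. Cish (chr9:107296409-107296708, + strand), Socs1 (chr16:10785487-10785786, - strand), Socs3 (chr11:117969317-117969616, - strand) and Stat2 (chr10:128270248-128270547, + strand) read as follows.
Cish: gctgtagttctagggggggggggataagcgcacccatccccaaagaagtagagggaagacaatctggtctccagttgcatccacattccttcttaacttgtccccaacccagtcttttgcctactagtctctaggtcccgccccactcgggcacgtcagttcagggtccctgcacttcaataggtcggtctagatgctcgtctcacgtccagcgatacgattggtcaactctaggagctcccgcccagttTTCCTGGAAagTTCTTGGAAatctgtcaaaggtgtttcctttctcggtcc
Socs1: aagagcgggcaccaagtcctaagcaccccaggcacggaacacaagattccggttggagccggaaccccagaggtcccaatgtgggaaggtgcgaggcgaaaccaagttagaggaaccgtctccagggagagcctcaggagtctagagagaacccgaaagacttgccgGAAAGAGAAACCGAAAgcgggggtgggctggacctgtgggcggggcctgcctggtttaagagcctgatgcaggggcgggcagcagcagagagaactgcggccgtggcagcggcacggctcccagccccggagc
Socs3: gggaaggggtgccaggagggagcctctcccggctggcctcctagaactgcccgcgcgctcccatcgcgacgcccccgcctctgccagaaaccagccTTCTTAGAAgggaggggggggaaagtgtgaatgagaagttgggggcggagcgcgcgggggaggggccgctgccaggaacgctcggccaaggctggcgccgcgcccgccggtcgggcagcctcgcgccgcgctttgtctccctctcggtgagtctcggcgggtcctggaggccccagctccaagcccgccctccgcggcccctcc
Stat2: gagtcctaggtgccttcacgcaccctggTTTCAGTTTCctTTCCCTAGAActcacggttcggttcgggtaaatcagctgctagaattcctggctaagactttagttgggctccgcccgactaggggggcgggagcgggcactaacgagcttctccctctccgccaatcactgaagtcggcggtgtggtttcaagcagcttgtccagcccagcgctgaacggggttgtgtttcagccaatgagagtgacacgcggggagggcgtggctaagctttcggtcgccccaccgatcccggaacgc

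In the Cish promoter the palindrome with 3 free bases occurred at the start itself and again 11 bases after it, as TTCCTGGAA and TTCTTGGAA. Of 32851 RefSeq promoters of this length, 8.30% held at least 1 such palindrome and 0.457% held 2 or more. In Socs3 it occurred 154 bases before the start used, as TTCTTAGAA, and that start lies inside the annotated gene. In Stat2 the palindrome with 4 free bases stood 210 bases before the start, as TTCCCTAGAA, beside an interferon motif 222 bases before it. That spacing was found in 6.95% of promoters. In Socs1, a pair of interferon motifs that overlap each other lay 83 and 77 bases before the start, and 3.44% of promoters held at least 1 interferon motif. The interferon motif was added after the sequences had been seen. The table held 10 promoters for 8 of the genes (none for Socs2). Beside the motifs above, 1 interferon motif lay 97 bases before the later of the 2 Stat4 starts. The Smad palindrome GTCTAGAC, which 0.213% of promoters held, was in none of the 10. A match is a string of letters and not a measured binding site.

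The cell-type libraries held 797612 to 1551478 reads and the Smad libraries 1294583 to 1602297. The 9 genes were covered by 18 to 1439 reads per library, and none was at 0. Levels are CPM, reads per 1000000 counted reads, which the authors rounded to whole numbers in the Smad table. The tables were normalised separately, so they are not tested against each other. Foxp3, the transcription factor that defines Treg cells, was at 138 to 207 CPM in Treg and 8.57 to 13.8 CPM in Th0 libraries, and the naive libraries held 82.7 to 91.7 CPM of it. Smad2 tags were at 12 to 24 CPM with sgSmad2 and 13 to 18 CPM with sgSmad2/3, against 29 to 37 CPM in control. Smad3 tags were at 25 to 26 CPM with sgSmad3, against 30 to 34 CPM in control, but at 37 to 41 CPM in the libraries labelled sgSmad2/3 and 44 to 56 CPM in those with sgSmad2. A 3' tag does not show whether a transcript carries an edit, so it is a weak check of a guide. Since these are bulk libraries, fewer cells of a type and less RNA per cell cannot be told apart.

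The first comparison asks how the genes differed between cultured Treg cells and naive cells, the cell type they were grown from. Of the 9 genes, 5 rose and none fell (limma on log2(CPM + 1), Benjamini-Hochberg adjusted p below 0.05), where 23.3% of the 14165 genes tested rose and 16.5% fell. Socs2, Cish and Socs1 rose most, by 36.3-fold, 9.57-fold and 6.16-fold, and Pim1 and Stat2 rose by 1.995-fold and 1.76-fold. Stat3, Stat4, Stat6 and Socs3 were not called. The median log2 change of the 9 genes was 0.82, against 0.08 over all genes tested.

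Among the feedback inhibitors, Socs2 encodes a component of a ubiquitin ligase that is best known for limiting growth hormone signalling. It was measured at 742, 928 and 925 CPM in Treg libraries, against 22.6, 24.8 and 21.0 CPM in naive libraries. Every Treg library lay far above every naive one, and by the size of its change it ranked 60 among the 14165 genes tested. The log2 change was 5.18 (95% interval 4.95 to 5.41, limma adjusted p = 4.4e-17). Cish, whose product binds the IL-2 receptor in competition with STAT5, had 609, 668 and 687 CPM in Treg and 76.5, 52.0 and 77.2 CPM in naive libraries. The groups stood well apart, with a log2 change of 3.26 (3.00 to 3.52, limma adjusted p = 1.3e-13). Socs1, an inhibitor of the Janus kinases with a central part in restraining interferon-gamma signalling, had 409, 343 and 363 CPM in Treg and 79.0, 47.1 and 56.1 CPM in naive libraries, again without overlap. Its log2 change was 2.62 (2.32 to 2.93, limma adjusted p = 2.7e-11).

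Socs3, which binds gp130 and damps IL-6 signalling, did not move with the other feedback inhibitors among the 9 genes. It had 148, 168 and 133 CPM in Treg and 160, 135 and 144 CPM in naive libraries, which overlapped. The log2 change was 0.03 (-0.25 to 0.30, limma adjusted p = 0.89), an interval that leaves out a change of the size seen for Socs1 in either direction.

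Pim1 was at 599, 616 and 659 CPM in Treg libraries and 280, 328 and 332 CPM in naive libraries. All 3 Treg libraries lay above all naive ones, and the log2 change was 0.997 (0.81 to 1.18, limma adjusted p = 2.4e-08). Stat2, a component of the complex that type I interferon activates, had 114, 96.7 and 90.1 CPM in Treg and 50.1, 61.9 and 57.3 CPM in naive libraries. It was the sole STAT of the 4 to rise, by 0.82 on the log2 scale (0.53 to 1.10, limma adjusted p = 7.7e-05). Stat3 had 348, 411 and 323 CPM in Treg and 387, 395 and 357 CPM in naive libraries, with a log2 change of -0.08 (-0.30 to 0.14). Stat4 had 59.2, 40.0 and 62.7 CPM in Treg and 55.2, 69.4 and 65.5 CPM in naive libraries, with a log2 change of -0.25 (-0.66 to 0.17). Stat6 had 59.2, 81.9 and 87.2 CPM in Treg and 96.5, 78.1 and 91.2 CPM in naive libraries, with a log2 change of -0.23 (-0.57 to 0.11). For these 3 STATs the groups overlapped, and the limma adjusted p was 0.59, 0.35 and 0.28 in the order given.

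**Figure D1:**
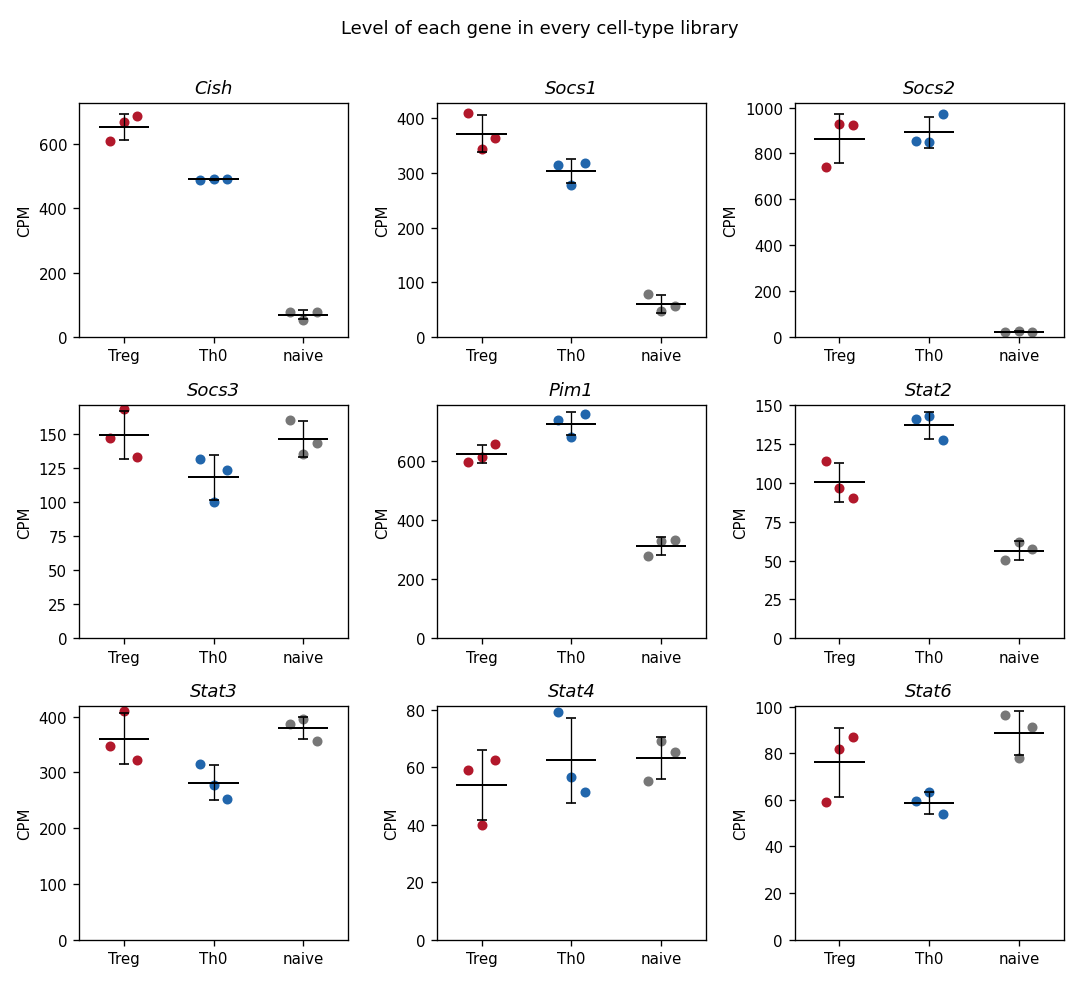
Level of each of the 9 genes in CPM (vertical axis, from 0) in the 3 Treg, 3 Th0 and 3 naive libraries. Points are libraries, the horizontal bar is the mean and the error bar the SD; Socs2, at 742 to 971 CPM in both cultures, stood far from the 21.0 to 24.8 CPM of naive libraries, while the levels of Stat4 overlapped throughout.

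The naive libraries also differed in markers of other cells. Their summed level of 7 B cell markers was 205 to 470 CPM, against 104 to 114 CPM in Treg and 102 to 121 CPM in Th0 libraries. The 8 myeloid markers summed to 33.9 to 97.9 CPM in naive, 1.08 to 2.94 CPM in Treg and 0 to 5.30 CPM in Th0 libraries, and the 5 red cell markers to 496 to 1172 CPM in naive, 0 to 4.51 CPM in Treg and 4.90 to 5.55 CPM in Th0 libraries. Of these lists, 6 to 7 of 7 B cell, 5 to 7 of 8 myeloid and 5 of 5 red cell markers were above 0 in each naive library, against 2 to 5, 0 to 3 and 0 to 2 in each cultured one. Lyz2, S100a8, S100a9 and Alas2 were at 0 in all 6 cultured libraries, and Itgam was at 0 in all 3 naive ones. Markers of CD8 and NK cells overlapped, at 49.1 to 74.0 CPM in naive, 44.1 to 106 CPM in Treg and 34.3 to 73.1 CPM in Th0 libraries. The naive libraries further held Treg markers, 373 to 419 CPM summed over 4 genes, against 246 to 373 CPM in Treg and 76.6 to 88.2 CPM in Th0 libraries. These 4 genes did not go the same way. On average, Ikzf2 (282 against 102 CPM) and Ctla4 (20.1 against 13.9 CPM) were higher in naive than in Treg libraries. Foxp3 (87.8 against 179 CPM) and Itgae (4.46 against 28.3 CPM) were lower in naive than in Treg libraries. The part of other cells in the levels of the 9 genes was not tested.

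The second comparison sets Th0 cells, cultured with IL-2 alone, against naive cells. It shares the naive libraries with the first, so that the pair of comparisons is not independent. Here 5 genes rose and 2 fell, where 24.3% of all genes tested rose and 17.6% fell (limma, adjusted p below 0.05). The median log2 change of the 9 genes was 1.22, against 0.08 over all genes tested. Socs2 was at 853, 852 and 971 CPM in Th0 libraries, against the naive values given above, and rose 37.5-fold (log2 5.23, 5.00 to 5.46, limma adjusted p = 2.8e-17). Cish had 489, 493 and 491 CPM in Th0 libraries, and rose 7.19-fold (log2 2.85, 2.59 to 3.10, limma adjusted p = 7.5e-13). Its coefficient of variation there was 0.326%, over 3 libraries with 462, 444 and 401 reads of Cish. Such counts are too low for that value to measure how stable the gene is. Socs1 had 314, 279 and 318 CPM in Th0 libraries and rose 5.04-fold (log2 2.33, 2.03 to 2.64, limma adjusted p = 1.4e-10). In each of these genes every Th0 library lay above every naive one.

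Pim1 had 741, 684 and 761 CPM in Th0 libraries, all above the naive ones, and rose 2.33-fold (log2 1.22, 1.03 to 1.40, limma adjusted p = 1.2e-09). Stat2 had 141, 143 and 127 CPM in Th0 libraries, also without overlap, and rose 2.41-fold (log2 1.27, 0.98 to 1.56, limma adjusted p = 3.3e-07). Both genes had their highest mean of the 3 cell types in Th0 cells. Stat6, the transducer of IL-4, had 59.3, 63.2 and 53.9 CPM in Th0 libraries, all below the naive ones, and fell by 0.58 on the log2 scale (-0.92 to -0.24, limma adjusted p = 0.0069). Stat3, the transducer of IL-6, had 315, 277 and 252 CPM in Th0 libraries, again all below the naive ones, and fell by 0.44 on the log2 scale (-0.66 to -0.21, limma adjusted p = 0.0025). That call was lost when limma was fitted without the intensity trend (adjusted p = 0.064). Stat4 had 79.5, 56.6 and 51.4 CPM in Th0 libraries, which spanned the naive range, with a log2 change of -0.04 (-0.45 to 0.37, limma adjusted p = 0.90).

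Socs3 had 131, 99.9 and 124 CPM in Th0 libraries, all below the naive libraries, and its log2 change of -0.31 (-0.58 to -0.04) did not pass (limma adjusted p = 0.063). It passed in 5 of 16 alternatives, among them edgeR on the whole reads (adjusted p = 0.0095), and leaving out Th0 replicate 1 (limma adjusted p = 0.041) or naive replicate 2 (limma adjusted p = 0.049). Over its alternatives the adjusted p ranged over 0.0095 to 0.29.

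**Figure D2:**
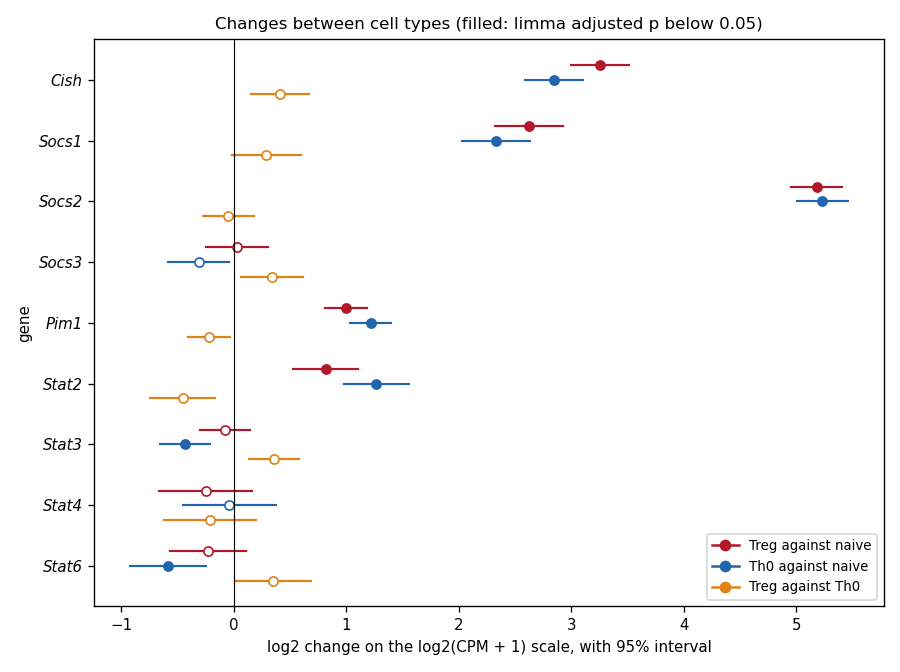
Change of each gene between cell types, on the log2(CPM + 1) scale (horizontal axis), with bars for the 95% interval. Filled points had a limma adjusted p below 0.05; the intervals of Treg against Th0 lie within 1 log2 unit of 0, while Socs2 stands at 5.18 and 5.23 against naive cells in Treg and Th0.

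The third comparison, Treg against Th0, is the one in which TGF-beta is the labelled difference, and every log2 change of the 9 genes in it was between -0.45 (Stat2) and 0.41 (Cish). limma called none of them, where 2.99% of all genes tested rose and 2.45% fell. At an unadjusted p below 0.05 there were 6 genes of 9, against 15.7% of all genes. edgeR's quasi-likelihood test on the whole reads called 4, namely Cish, Stat3 and Socs1 as higher and Stat2 as lower in Treg, against 7.53% of all genes. With a filter of 5 CPM, chosen after seeing the data, limma called 3 (Cish, Stat3 and Stat2), against 7.98% of all genes. The groups did not overlap for 6 of the 9, against 21.2% of all genes. The median log2 change of the 9 genes was 0.29, against -0.01 over all genes tested.

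By the values given above, the lowest Treg library exceeded the highest Th0 library for Cish (609 against 493 CPM), Stat3 (323 against 315 CPM), Socs1 (343 against 318 CPM) and Socs3 (133 against 131 CPM). Cish averaged 655 ± 40.4 CPM in Treg and 491 ± 1.60 CPM in Th0 libraries (SD, n = 3 each). This was a 1.33-fold difference (log2 0.41, 0.15 to 0.67), with a limma adjusted p of 0.059 and an edgeR adjusted p of 0.00021. It passed in 7 of 16 alternatives, and leaving out naive replicate 1, 2 or 3, which enter the fit only through the shared spread and the filter, gave a limma adjusted p of 0.017, 0.0050 and 0.023. Stat3 averaged 361 ± 45.4 CPM in Treg and 281 ± 31.4 CPM in Th0 libraries (SD, n = 3 each), a 1.28-fold difference (log2 0.36, 0.13 to 0.58), with a limma adjusted p of 0.058 and an edgeR adjusted p of 0.0061. It passed in 9 of 16 alternatives, and the limma adjusted p was 0.035 without Th0 replicate 1, 0.038 without Treg replicate 3, and 0.035, 0.046 and 0.040 without naive replicate 1, 2 and 3.

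Stat2 averaged 100 ± 12.4 CPM in Treg and 137 ± 8.52 CPM in Th0 libraries (SD, n = 3 each), and all Treg libraries were below all Th0 ones. The log2 change was -0.45 (-0.74 to -0.17), with a limma adjusted p of 0.062 and an edgeR adjusted p of 0.020. It passed in 4 of 16 alternatives, with a limma adjusted p of 0.047 without Treg replicate 1 and 0.040 without naive replicate 1. Pim1 was also lower in every Treg library than in any Th0 library, with a log2 change of -0.22 (-0.41 to -0.04, limma adjusted p = 0.20), and was called in none of the 16 alternatives. Socs1 had a log2 change of 0.29 (-0.01 to 0.59, limma adjusted p = 0.35, edgeR adjusted p = 0.048) and Socs3 one of 0.34 (0.07 to 0.61, limma adjusted p = 0.18, edgeR adjusted p = 0.059).

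Stat6, at 76.1 ± 14.8 CPM in Treg and 58.8 ± 4.70 CPM in Th0 libraries (SD, n = 3 each), had a log2 change of 0.35 (0.01 to 0.69, limma adjusted p = 0.30), and its groups overlapped through the lowest Treg library. For Socs2 the interval was narrow around 0, at -0.05 (-0.28 to 0.18, limma adjusted p = 0.89), with overlapping groups. Stat4 had a log2 change of -0.21 (-0.62 to 0.20, limma adjusted p = 0.71) and overlapped. The order of the cell types therefore differed from gene to gene. Cish and Socs1 ran from Treg over Th0 to naive, and Pim1 and Stat2 from Th0 over Treg to naive, though the limma test did not separate Treg from Th0 in any of the 4.

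Across the 9 libraries of this experiment, Cish, Socs1, Socs2 and Pim1 followed each other closely, with a Pearson r of log2(CPM + 1) of 0.92 to 0.99 between pairs, and Stat2 followed Pim1 (r = 0.95) and Socs2 (r = 0.91). Stat3 and Socs3 went together (r = 0.80), as did Stat3 and Stat6 (r = 0.70), whereas Stat2 ran against Stat6 (r = -0.86). Stat4 followed none of them (r between -0.32 and -0.05). These are descriptions over 9 libraries that fall into 3 cell types, so that a gene which differs between naive and cultured cells correlates with every other such gene.

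The non-member genes with the pattern most like each member were sought among 6630 genes with a mean of 20 CPM or more. The pattern of Socs2 was closest to Il2ra, the IL-2 receptor alpha chain (r = 0.999), which was at 1332 ± 41.6 CPM in Treg, 1313 ± 50.4 CPM in Th0 and 75.4 ± 10.2 CPM in naive libraries (SD, n = 3 each). Birc5 and Kif15 came next, almost level with it (r = 0.998 each). Socs2 shared an r of 0.99 or more with 145 genes, Cish with 28, and Socs1 and Pim1 with 21 each. For Cish the closest were Troap, Neurl1b and Mapkapk2, for Socs1 the cell division genes Ccna2, Spag5 and Kif23, and for Pim1 the genes Uck2, Eif3a and Atp5g3. Stat2 was closest to Isg20 (r = 0.989), an interferon-induced exonuclease, at 56.6 CPM on average in Treg, 114 CPM in Th0 and 9.68 CPM in naive libraries, and then to Pim2 and Npm1. Stat3 was closest to Frmd8, Zeb1 and Ypel3 (r = 0.92 to 0.94) and Stat6 to Pgm2l1, Ccdc186 and Arhgef2 (r = 0.94 to 0.97). No gene reached an r of 0.99 for Stat2, Stat3, Stat4, Stat6 or Socs3. For Socs3 and Stat4 the highest r was 0.88 (Cic) and 0.90 (Cdk7).

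Around these genes, 50 further genes of the pathway in 6 lists were followed. Of the other STAT genes, Stat5b fell in Treg against naive cells (70.9 ± 3.94 CPM in Treg against 104 ± 19.6 CPM in naive libraries, SD, n = 3 each; log2 -0.53, limma adjusted p = 0.0079). In Th0 against naive cells, Stat5b (log2 -0.88, limma adjusted p = 9.5e-05) and Stat5a (log2 -0.81, limma adjusted p = 0.019) fell. Neither transducer of IL-2, Stat5a or Stat5b, rose in a culture. Neither was called between Treg and Th0. Among the 4 Janus kinases, Jak1 was at 718 ± 59.7 CPM in Treg, 533 ± 29.6 CPM in Th0 and 1355 ± 84.0 CPM in naive libraries. It fell in both cultures against naive cells (log2 -0.92 in Treg and -1.35 in Th0), and it was higher in Treg than in Th0 (log2 0.43, limma adjusted p = 0.0028). Jak3, which carries the signal of the common gamma chain, rose in Treg against naive cells (log2 1.06, limma adjusted p = 0.00097), and Tyk2 fell in Th0 against naive cells (log2 -0.69, limma adjusted p = 0.039).

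Of the 6 other SOCS and Pim genes, Pim2, a relative of Pim1, was at 66.8 ± 16.3 CPM in Treg, 117 ± 13.0 CPM in Th0 and 22.2 ± 6.61 CPM in naive libraries (SD, n = 3 each). It rose in both cultures (log2 1.56 in Treg and 2.38 in Th0) and was lower in Treg than in Th0 (log2 -0.82, limma adjusted p = 0.031). Pim3 fell in both (log2 -0.39 in each, limma adjusted p = 0.042 in Treg and 0.040 in Th0), and Socs7 rose in Treg against naive cells (log2 0.68, limma adjusted p = 0.0084). Socs4, Socs5 and Socs6 were called in none of the 3 comparisons. Of the 10 other inhibitors, 4 rose and 1 fell against naive cells in each culture, where 23.3% of all genes rose and 16.5% fell in Treg and 24.3% rose and 17.6% fell in Th0. They were not the same genes throughout, since Ptpn6 rose and Pias2 fell in Treg, while Usp18 rose and Pias1 fell in Th0. Between Treg and Th0, the phosphatase genes Ptpn6 (log2 0.73, limma adjusted p = 0.00019) and Ptpn1 (log2 0.32, limma adjusted p = 0.035) were higher. Usp18, an interferon-induced inhibitor of the interferon receptor, was lower (11.9 ± 4.63 CPM in Treg against 49.9 ± 10.6 CPM in Th0 libraries, log2 -2.02, limma adjusted p = 0.0013).

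Among 18 cytokine receptor chains, 7 rose and 7 fell in Treg against naive cells, and 6 rose and 7 fell in Th0 against naive cells. Of all genes tested, 23.3% rose and 16.5% fell in Treg, and 24.3% rose and 17.6% fell in Th0. The IL-2 receptor chains Il2ra (log2 4.13 in Treg and 4.11 in Th0) and Il2rb (log2 2.04 and 2.40) were among those that rose, and the IL-7 receptor chain Il7r was among those that fell (log2 -2.54 and -2.73). Il12rb1, a chain of the IL-12 receptor, was at 6.44 ± 0.925 CPM in Treg and 19.8 ± 4.87 CPM in Th0 libraries, against 1.23 ± 1.26 CPM in naive libraries, a mean under the worth of 3 reads (limma adjusted p = 0.0038 in Treg and 1.4e-05 in Th0). Between Treg and Th0, 2 chains were higher and 2 lower, where 2.99% of all genes were higher and 2.45% lower. Ifngr2, the signalling chain of the interferon-gamma receptor, was at 43.7 ± 2.08 CPM in Treg and 10.1 ± 1.54 CPM in Th0 libraries (log2 2.02, limma adjusted p = 5.8e-05), and Il6ra at 145 ± 22.4 CPM in Treg and 79.4 ± 26.0 CPM in Th0 libraries (log2 0.89, limma adjusted p = 0.0017). Both of these Il6ra means were below the 432 ± 13.5 CPM of naive libraries. Il12rb2, which signals through STAT4, was at 8.01 ± 4.40 CPM in Treg and 29.6 ± 9.89 CPM in Th0 libraries (log2 -1.86, limma adjusted p = 0.022), and Il2rb was lower by 0.36 on the log2 scale (limma adjusted p = 0.031). Each SD is over 3 libraries.

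Of 8 growth and survival genes known as STAT targets, 5 rose and 2 fell in Treg against naive cells, and 5 rose and 3 fell in Th0 against naive cells, beside the shares of all genes just given (23.3% and 16.5% in Treg, 24.3% and 17.6% in Th0). Osm, a cytokine gene induced by STAT5, rose most (121 ± 8.60 CPM in Treg and 87.8 ± 18.4 CPM in Th0, against 12.5 ± 4.60 CPM in naive libraries, SD, n = 3 each; log2 3.24 and 2.76). The survival gene Bcl2 rose by 1.73 in Treg and 1.85 in Th0 on the log2 scale, and Myc by 1.89 and 1.83. Bcl6 fell, with log2 changes of -1.52 in Treg and -2.87 in Th0 (limma adjusted p = 0.038 and 0.00036). The latter was the largest change of the list in Th0, where the mean of 2.17 CPM was under the worth of 3 reads. None of the 8 was called between Treg and Th0. The median log2 change of this list was 1.42 in Treg and 1.70 in Th0 against naive cells, where that over all genes was 0.08 in both.

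**Figure D3:**
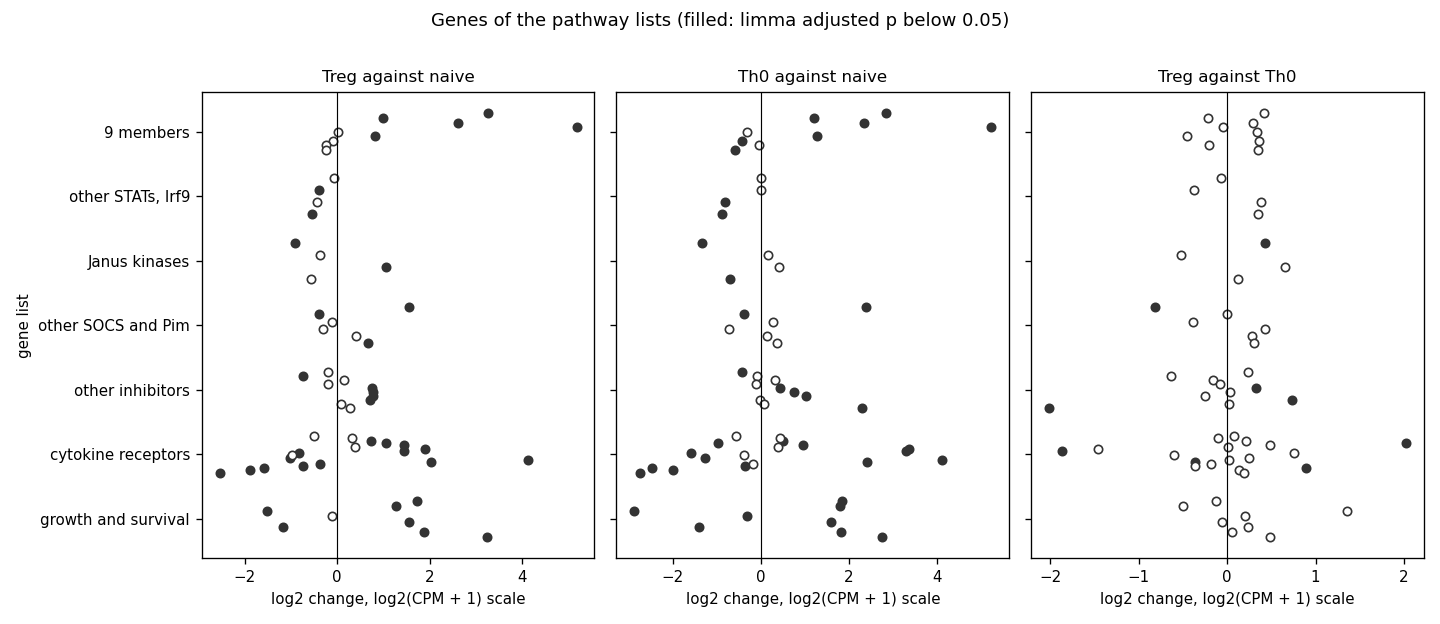
Log2 change (horizontal axis, log2(CPM + 1) scale) of each gene in the 9 members and the 6 further lists, in the 3 comparisons of cell types; 1 point is 1 gene and filled points had a limma adjusted p below 0.05. Against naive cells the receptors and the growth genes spread to either side of 0, and between Treg and Th0 the 9 members were all within 0.5 of 0 and not called.

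The Smad experiment asks what guides against the TGF-beta transcription factors do to Treg cultures. Of the 9 genes, none was called with sgSmad2, sgSmad3 or sgSmad2/3 against control, by limma or in any alternative, and none had an unadjusted p below 0.05. Over the 18347 genes tested, limma called 0% with each of the guides, and 5.48% with sgSmad2, 10.0% with sgSmad3 and 9.78% with sgSmad2/3 had an unadjusted p below 0.05. edgeR could not be run on these rounded values. With 2 libraries a group the intervals are wide, so the results limit the size of a change more than they show its absence. The levels in the 8 libraries follow for each gene.

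Socs2 had 947 and 1236 CPM with sgSmad2, 927 and 993 CPM with sgSmad3 and 1020 and 1103 CPM with sgSmad2/3, against 929 and 1151 CPM in control. All guide groups overlapped the control, and with sgSmad2/3 the log2 change was 0.04 (95% interval -0.39 to 0.46). Cish had 996 and 1217 CPM with sgSmad2, 954 and 1027 CPM with sgSmad3 and 993 and 1022 CPM with sgSmad2/3, against 1028 and 1130 CPM in control. The sgSmad3 and sgSmad2/3 libraries lay just below the control ones, with log2 changes of -0.12 (-0.43 to 0.19) and -0.10 (-0.41 to 0.21, limma adjusted p = 0.79). Cish had the narrowest intervals of the 9 genes.

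Socs1 had 264 and 458 CPM with sgSmad2, 476 and 336 CPM with sgSmad3 and 376 and 310 CPM with sgSmad2/3, against 265 and 302 CPM in control. Both sgSmad3 libraries and both sgSmad2/3 libraries were above the control, with log2 changes of 0.50 (-0.26 to 1.25, limma adjusted p = 0.69) and 0.27 (-0.48 to 1.03, limma adjusted p = 0.75). The sgSmad2 libraries differed from each other by more than that. Socs3 had 90 and 95 CPM with sgSmad2, 77 and 97 CPM with sgSmad3 and 61 and 92 CPM with sgSmad2/3, against 89 and 155 CPM in control. The largest change in size among the 9 genes was that of Socs3 with sgSmad2/3, at -0.64 on the log2 scale (-1.43 to 0.15, limma adjusted p = 0.63). Its groups overlapped, and the mean of the control rested on 1 library at 155 CPM.

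**Figure D4:**
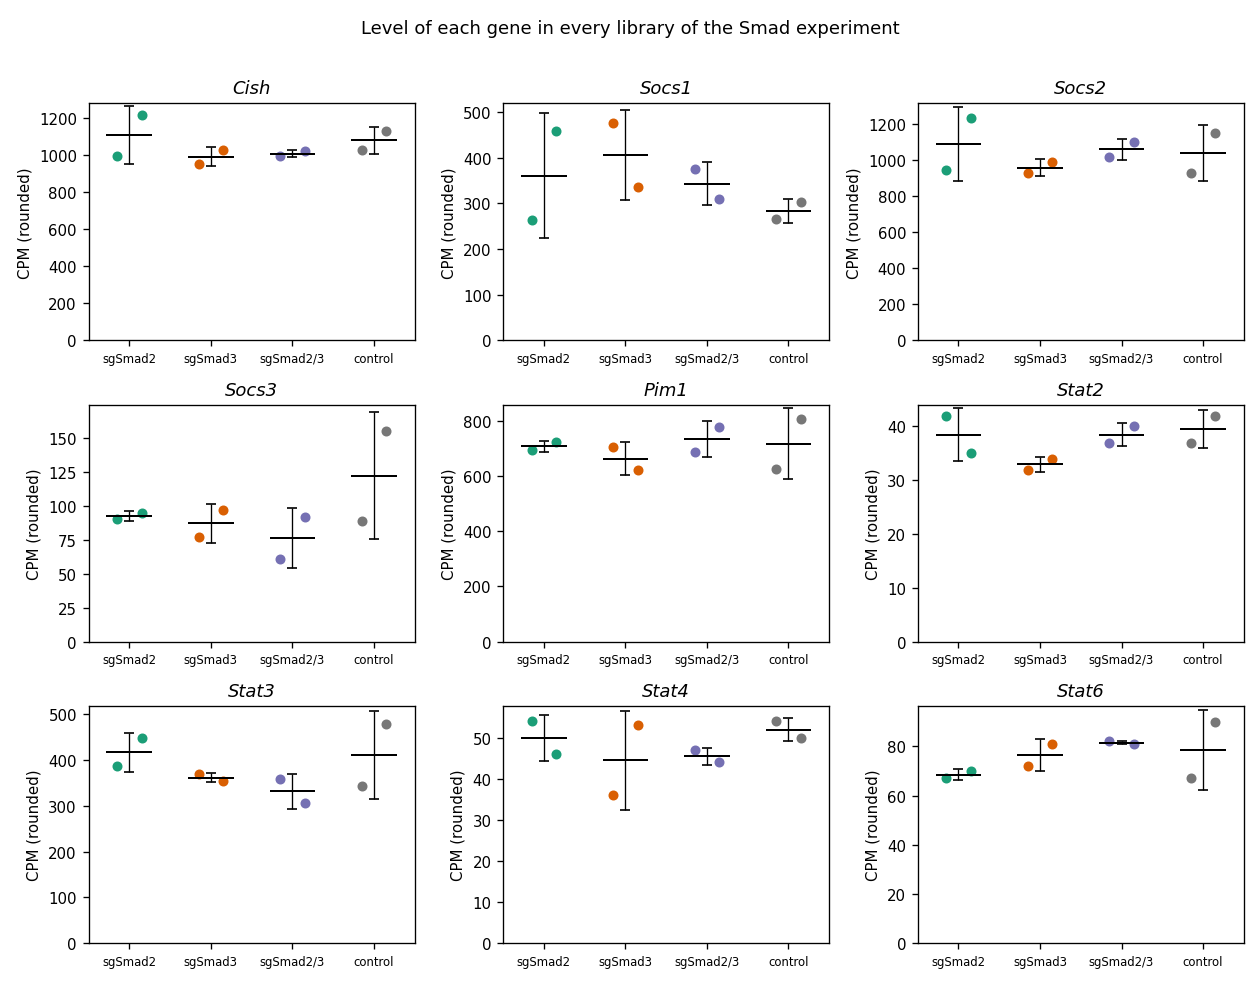
Level of each of the 9 genes in CPM, rounded by the authors (vertical axis, from 0), in the 2 libraries each of sgSmad2, sgSmad3, sgSmad2/3 and control. Points are libraries, the horizontal bar is the mean and the error bar the SD; for Socs3 the control libraries, at 89 and 155 CPM, are further apart than the means of the groups.

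Pim1 had 693 and 721 CPM with sgSmad2, 704 and 621 CPM with sgSmad3 and 687 and 778 CPM with sgSmad2/3, against 626 and 807 CPM in control, and every guide group lay in or across the control range. Its log2 change with sgSmad2/3 was 0.04 (-0.33 to 0.42). Stat3 had 387 and 447 CPM with sgSmad2, 369 and 354 CPM with sgSmad3 and 359 and 305 CPM with sgSmad2/3, against 343 and 479 CPM in control. Its log2 change with sgSmad2/3 was -0.29 (-0.75 to 0.17, limma adjusted p = 0.70), with overlapping groups. Stat6 had 67 and 70 CPM with sgSmad2, 72 and 81 CPM with sgSmad3 and 82 and 81 CPM with sgSmad2/3, against 67 and 90 CPM in control, within which all of them lay.

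Stat2 had 42 and 35 CPM with sgSmad2, 32 and 34 CPM with sgSmad3 and 37 and 40 CPM with sgSmad2/3, against 37 and 42 CPM in control. With sgSmad3 both libraries lay below the control, with a log2 change of -0.25 (-0.60 to 0.10, limma adjusted p = 0.64). Stat4 had 54 and 46 CPM with sgSmad2, 36 and 53 CPM with sgSmad3 and 47 and 44 CPM with sgSmad2/3, against 54 and 50 CPM in control. The sgSmad2/3 libraries lay below the control, with a log2 change of -0.19 (-0.69 to 0.31, limma adjusted p = 0.74). In all, the guide and control libraries did not overlap for 0 of the 9 genes with sgSmad2, for 3 with sgSmad3 (Cish and Stat2 lower, Socs1 higher) and for 3 with sgSmad2/3 (Cish and Stat4 lower, Socs1 higher). The share of all genes without overlap was 19.0%, 28.2% and 29.8% in the same order, so the counts are near or below the background.

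**Figure D5:**
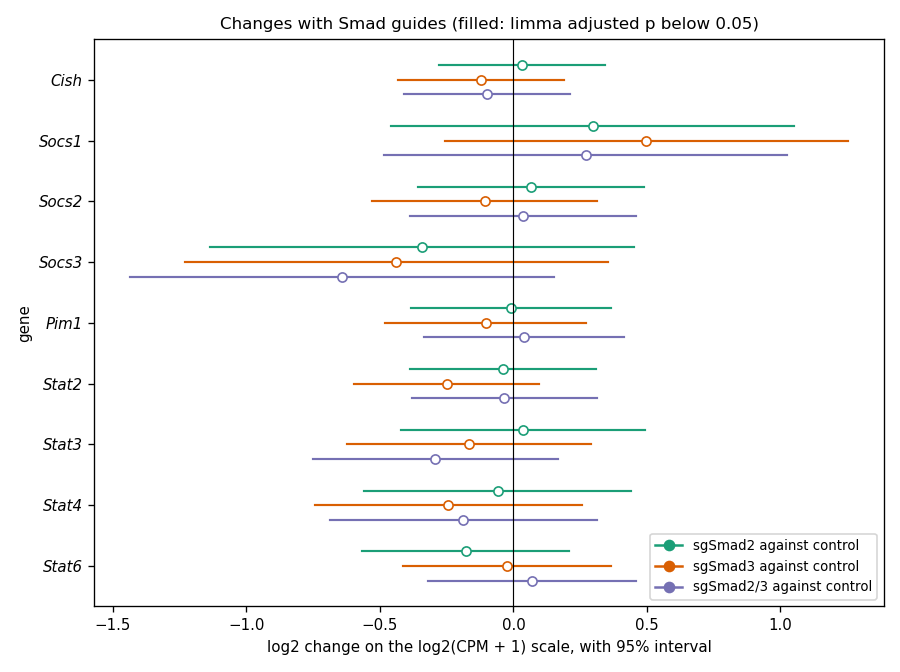
Change of each gene with each guide against control, on the log2(CPM + 1) scale (horizontal axis), with bars for the 95% interval. Every interval includes 0 and no point is filled, since no gene had a limma adjusted p below 0.05.

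The guides were also compared with each other. Between sgSmad3 and sgSmad2 none of the 9 genes was called, at 0% of all genes called and 8.75% with an unadjusted p below 0.05, and the log2 changes ranged over -0.21 for Stat2 to 0.20 for Socs1. A further contrast, the effect of sgSmad2/3 less the added effects of sgSmad2 and sgSmad3, asks how far both guides together depart from the single ones. None of the 9 genes was called there, at 0% of all genes called and 5.73% with an unadjusted p below 0.05. The departures ranged over -0.52 for Socs1 (-1.59 to 0.54) to 0.27 for Stat6 (-0.28 to 0.82). Of the 50 further pathway genes followed above, all but 1 receptor chain were tested in the Smad table, and limma called none of them with any guide.

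Markers of other cells varied between these libraries too, though not all in the same direction. The 8 myeloid markers summed to 4 to 8 CPM with sgSmad2, 8 to 53 CPM with sgSmad3 and 18 to 67 CPM with sgSmad2/3, against 3 CPM in both control libraries. The 5 red cell markers summed to 24 to 25 CPM, 32 to 87 CPM and 70 to 144 CPM with these guides, against 13 to 19 CPM in control, and Alas2 was at 0 in all 8 libraries. B cell markers were lower with the guides, at 75 to 83, 78 to 91 and 62 to 91 CPM, against 95 to 97 CPM in control. Those of CD8 and NK cells summed to 26 to 41, 23 to 40 and 24 to 29 CPM, against 32 to 35 CPM in control. The 4 Treg markers summed to 462 to 736 CPM, 373 to 468 CPM and 378 to 384 CPM in the same order, against 397 to 563 CPM in control. The part of these marker differences in the levels of the 9 genes was not tested. Set beside the Treg libraries of the cell-type experiment, the control Treg cultures of this one had 1079 ± 72.1 CPM of Cish (SD, n = 2), where those libraries had 655 ± 40.4 CPM (SD, n = 3), and 39.5 ± 3.54 CPM of Stat2, where those had 100 ± 12.4 CPM. The labels give both sets the same culture conditions, and since the tables were normalised separately no test was made.

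On GRCm38.p6, the genes lie at chr9:107296659-107302784 (Cish), chr16:10783808-10785536 (Socs1), chr10:95383903-95417321 (Socs2), chr11:117966079-117970336 (Socs3), chr17:29490785-29496111 (Pim1), chr10:128270498-128292853 (Stat2), chr11:100886806-100939594 (Stat3), chr1:51987106-52107189 (Stat4) and chr10:127642955-127660987 (Stat6), and all are annotated as protein coding.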

How the data were processed

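RNA was taken with TRIzol and turned into 3' tag libraries (Lexogen QuantSeq FWD), per the labels' protocols. Per the submitters' processing notes, the build was mm10 and the tools included Subread 2.0.1, STAR 2.7.9a, deepTools and Bowtie2, with roles not stated. How strand was set, and which annotation was used, is not given in the sources used. The tables are called TPM by the authors. The deposited cell-type values are CPM: each column sums to 1000000, and 100% of the values are whole multiples of the worth of 1 read (tolerance 0.01). The deposited Smad values are a score: the authors rounded CPM to whole numbers. An unnamed last line giving the worth of 1 read was not used as a gene. The plan had assumed TPM. Of the IDs, 54409 of 54532 and 55154 of 55421 matched a name, and 27 symbols in each table that had become dates were restored. Of 29 samples, 4 RNA libraries of another guide experiment and 8 ATAC libraries were not analysed here.

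Genes with 1 CPM or more in at least 3 libraries (cell types, 14165 genes) or 2 libraries (Smad, 18347 genes) were fitted with limma 3.58.1 in R 4.3.3 on log2(CPM + 1), using an intensity trend and 1 fit per table. The p-values were adjusted by Benjamini-Hochberg over all genes, threshold 0.05. Folds refer to log2(CPM + 1), and so are too small for low genes. edgeR 4.0.16 was run on the whole reads of the cell-type table, where it called 1066 genes between Treg and Th0. The scripts were tested on simulated data. Reads carry no molecular identifiers. The labels do not say whether replicates are separate animals or cultures, so p-values reflect library spread alone, perhaps technical. Alternatives were no low-value filter, a 5 CPM filter, no trend, a pseudocount of 0.1, quantile scaling, a replicate block, edgeR, and leaving out each library. All members are named in each comparison; of a pathway list, at most 4 of the genes called, by size of change. The members, lists and tests were chosen with earlier results of these data known.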

Additional observations from a re-analysis of the deposited data

How the results depend on the processing

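Of 1062 combinations of a gene, a comparison and an alternative, 1035 kept their side of the threshold, 26 came to pass it and 1 ceased to, and no called change turned its sign. The sign flipped in 10 of the 432 combinations of the cell-type table and in 46 of the 630 of the Smad table, in each case of a change that was not called. The 5 calls of Treg against naive held in all 16 alternatives, and those of Th0 against naive numbered 6 to 8, against 7. Between Treg and Th0, where limma called 0 of the 9 genes, 1 was called with no filter on low values, 3 with a filter of 5 CPM (chosen after seeing the data), 2 with quantile scaling, 4 by edgeR, and 0 to 3 when a library was left out. Fewer genes are tested with the 5 CPM filter; for the other settings the cause was not tested. Quantile scaling moved the median of all genes by -0.12 (Th0 against naive) and -0.13 (Treg against naive) on the log2 scale, and turned the balance of calls over all genes from more higher to more lower (2872 higher and 3031 lower in Th0, 2735 higher and 2833 lower in Treg). All settings left the Smad counts of the 9 genes at 0. Over all genes, limma called 0 with each guide, but 1, 10 and 56 (sgSmad2, sgSmad3, sgSmad2/3) and 5 between sgSmad3 and sgSmad2 with the 5 CPM filter, 175, 158, 164 and 152 with no trend, and 185, 178, 178 and 151 with a pseudocount of 0.1; the departure had 0 throughout. Over all genes, libraries with the same replicate number shared little of their deviation. Deviations from group means correlated at -0.00287 to 0.0414 in the cell-type table and 0.00556 to 0.0374 in the Smad table, except 0.215 for control with sgSmad2. This cannot show that the libraries were unpaired. For Socs2, Cish and Socs3, replicate 2 was above replicate 1 in all 4 Smad groups, and for the other members the direction was mixed. A replicate block called 1 gene (Stat3) between Treg and Th0 and changed no other call of the 9. Without either library of a Smad group, the lone library is assumed to vary like the other groups.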
